A study of Mus musculus with 8 samples.

Results

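The miR-106b-25 and miR-106a-363 clusters are the paralogs of the miR-17-92 cluster, and their unstarred miRNAs were followed here through the TEBs, mature ducts and stroma of the pubertal mouse mammary gland. Members were chosen by name, leaving out miR-19b and miR-92a, which the second cluster shares with miR-17-92. They were miR-106b, miR-93 and miR-25 from the first cluster and miR-106a, miR-18b, miR-20b and miR-363 from the second. Of these 7 miRNAs, 6 were among the 611 mouse miRNAs of the arrays and miR-106a was not analysed here. Only 4 of the 6, miR-106b, miR-93, miR-25 and miR-20b, were detected and could be tested, in a set of 167 miRNAs that were flagged as detected throughout the arrays of 1 or more tissues.

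The tissues were micro-dissected under a fluorescence microscope from female mice of 5 weeks carrying a beta actin-GFP reporter on the FVB/n strain, and no group received a treatment. TEBs, the growing tips of the ductal tree, had 3 arrays, and there were 2 of mature ducts and 3 of distal stroma. Each array was an Agilent single-colour mouse miRNA array, on which between 23.2% and 27.7% of the mouse miRNAs were detected, and the small number of arrays limits the precision of every value. The labels do not say whether the arrays of a tissue came from separate mice, so p-values measure only the spread between arrays, which may be technical.

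A miRNA recognises its messenger RNA targets mainly through its seed, bases 2 to 8 from the 5′ end, so miRNAs with the same seed are counted as a family with overlapping targets. The miR-17-92 cluster and its paralogs arose by duplication and carry members of the miR-17 and miR-25/92 seed families. The miR-18 and miR-19 families are present in addition in miR-17-92 and miR-106a-363. miR-17-92 is known as a proto-oncogenic cluster of proliferating cells, and miR-106b, miR-93 and other miRNAs of the miR-17 seed are known to target the cell-cycle inhibitor p21. The miR-106b-25 cluster lies within the gene of Mcm7, a subunit of the replicative DNA helicase, and is made from its transcript.

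In the RefSeq annotation of GRCm38.p6, the 3 hairpins of miR-106b-25 occupied 498 bases of the minus strand at chr5:138165321-138165818, inside the bounds of Mcm7 (chr5:138164583-138172111). The 6 hairpins of miR-106a-363 occupied 875 bases of the minus strand at chrX:52741693-52742567, where the non-coding RNA gene Kis2 (chrX:52742563-52744593) overlaps their end, and the 6 of miR-17-92 occupied 836 bases of the plus strand at chr14:115043671-115044506. The annotation table used here gives gene bounds and no exons. The mature RefSeq sequences of the 7 members, matched by name, are shown because they divide the members into families, with the seed in capitals.
mmu-miR-106b: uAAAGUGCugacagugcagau
mmu-miR-93: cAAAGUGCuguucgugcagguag
mmu-miR-20b: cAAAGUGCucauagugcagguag
mmu-miR-106a: cAAAGUGCuaacagugcagguag
mmu-miR-18b: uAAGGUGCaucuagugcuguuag
mmu-miR-25: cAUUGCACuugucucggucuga
mmu-miR-363: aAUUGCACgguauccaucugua

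miR-106b, miR-93, miR-20b and miR-106a shared the seed of the miR-17 family, miR-25 and miR-363 that of the miR-25/92 family, and miR-18b that of the miR-18 family. Their counterparts in miR-17-92 are shown for the comparisons made further on.
mmu-miR-17: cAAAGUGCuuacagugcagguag
mmu-miR-20a: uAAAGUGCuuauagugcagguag
mmu-miR-18a: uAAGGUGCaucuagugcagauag
mmu-miR-92a: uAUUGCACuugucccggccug
miR-20b differed from miR-20a at 2 of 23 positions, C1U and C10U, where positions count from the 5′ end and the member's base comes first. miR-18b differed from miR-18a at 2 positions, U18A and U20A, and miR-106a from miR-17 at 1, A10U. miR-25 differed from miR-92a at 3 of 21 positions, C1U, U14C and U18C. How far a probe for one of these miRNAs also bound its relatives was not tested. The probes for miR-17, which differs from miR-20a at 2 positions, read below 0 on all 8 arrays, on which miR-20a read between 188 and 667 units. Whether the miR-17 probes could detect miR-17 itself was not tested.

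The signals given below are the scanner software's background-subtracted total signal of a miRNA, multiplied by a factor for each array so that its 75th percentile, over the 108 miRNAs found by all 8 arrays, became the same. The factors ran from 0.75 to 1.36. Differences between tissues are log2 fold changes of these scaled signals, and their standard errors and Benjamini-Hochberg adjusted p-values come from limma, fitted to all 8 arrays and all 167 tested miRNAs. The smallest p of the exact permutation test is 0.1 for 3 arrays against 2 or against 3, so single tests could not pass 0.05 there. In these dissected fractions, fewer cells of a type and less RNA per cell cannot be told apart.

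The fractions differed in the markers of other cell types as well as in the paralogs. The 6 epithelial marker miRNAs (miR-205 and the 5 miRNAs of the miR-200 family) were each detected throughout the epithelial arrays and nowhere in stroma, with summed scaled signals of 1948 to 2057 units in TEBs, 2077 to 2316 in ducts and 0 to 5.52 in stroma. The summed signal of the 6 blood cell markers was 1820 to 2349 units in TEBs, 2952 to 3660 in ducts and 2593 to 4165 in stroma. Of these markers, miR-142-5p and miR-150 were not detected on any stroma or duct array, and 2 of the 6 on no TEB array. The 2 endothelial markers, of which miR-126-5p was not detected, summed to 1315 to 1650 units in TEBs, 1927 to 2061 in ducts and 2765 to 3863 in stroma. The 5 fibroblast and smooth muscle markers, of which miR-145 was not detected, summed to 3160 to 3779 units in TEBs, 3427 to 3512 in ducts and 2467 to 2964 in stroma. The 3 adipocyte markers summed to 335 to 369 units in TEBs, 323 to 387 in ducts and 706 to 822 in stroma, and the 4 skeletal muscle markers, with miR-1 and miR-206 undetected in stroma, to 17.1 to 89.5 units in TEBs, 56.1 to 179 in ducts and 31.2 to 60.2 in stroma. The part of these differences in the results for the paralogs was not tested.

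In TEBs, miR-20b and miR-93 were higher than in ducts and stroma, while miR-106b and miR-25 did not pass the test in any comparison. miR-20b was 2.11-fold higher in TEBs than in ducts and miR-93 1.62-fold higher. The 2 miRNAs that rose belong to different clusters and share the miR-17 seed, and miR-106b, with the same seed and from the transcript of miR-93, was not called. Thus 2 of the 4 tested members were called between TEBs and ducts, both higher in TEBs, where 24.6% of the 167 tested miRNAs were called, 11.4% higher and 13.2% lower. The median log2 fold change of the 4 members was 0.41, beside -0.10 over all 167. The calls over all tested miRNAs split into 19 higher and 22 lower, and this split moved with the scaling, to 24 and 6 with the percentile of all mouse miRNAs, 12 and 63 with no scaling, 31 and 14 with quantile normalization and 32 and 18 in the value table of the series.

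miR-20b, the only member of the X-linked cluster that was detected, read 86.4, 119.9 and 118 units on the 3 TEB arrays, 47.7 and 53.8 on the duct arrays and 33.4, 40.5 and 35.7 on the stroma arrays. How far miR-20a, which differs from it at 2 positions and read 188 to 667 units, added to this signal was not tested. Every TEB array lay above both duct arrays, and both duct arrays lay above every stroma array, as did the TEB arrays over the duct arrays for 22.2% of the tested miRNAs and the duct arrays over the stroma arrays for 19.8%. The means were 108 ± 18.8 units in TEBs (SD, n = 3), 50.7 ± 4.3 in ducts (SD, n = 2) and 36.5 ± 3.6 in stroma (SD, n = 3). Between TEBs and ducts the log2 fold change was 1.08 (standard error 0.18, adjusted p = 0.013 from limma). Each row of the slide held a duct array, and the difference was 1.09 within row 1 and 1.14 within row 2. The call ended without TEB replicate 2 (adjusted p = 0.053 from limma) and without duct replicate 1 (adjusted p = 0.088), and under the methods' t-test, on the arrays of both tissues alone (adjusted p = 0.084). The normexp background correction added 50 units to each signal before scaling, which by itself shrinks the fold changes of weak signals. With it the log2 fold change was 0.56 (adjusted p = 0.014 from limma). With no scaling it was 0.71 (adjusted p = 0.032) and with the percentile of all mouse miRNAs 1.63 (adjusted p = 0.0055). The size of the fold change thus depended on the processing and its direction did not.

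miR-93, from the Mcm7 transcript, read 77.1, 89.0 and 84.5 units on the TEB arrays, 56.6 and 47.0 on the duct arrays and 60.1, 53.9 and 51.8 on the stroma arrays. All TEB arrays lay above all duct and stroma arrays, and the duct and stroma arrays overlapped. The arrays of TEBs and ducts did not overlap for 65.3% of the tested miRNAs, in either direction, those of TEBs and stroma for 71.9% (23.4% with TEBs above) and those of ducts and stroma for 42.5%. The means were 83.5 ± 6.0 units in TEBs (SD, n = 3), 51.8 ± 6.8 in ducts (SD, n = 2) and 55.3 ± 4.4 in stroma (SD, n = 3). Between TEBs and ducts the log2 fold change was 0.69 (standard error 0.13, adjusted p = 0.015 from limma), with 0.55 within row 1 of the slide and 0.85 within row 2. The call ended without TEB replicate 2 (adjusted p = 0.053), without duct replicate 2 (adjusted p = 0.062), under the methods' t-test (adjusted p = 0.084) and with no scaling, where the log2 fold change was 0.33 (adjusted p = 0.25). It was 1.24 with the percentile of all mouse miRNAs (adjusted p = 0.025) and 0.34 by normexp (adjusted p = 0.047).

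miR-106b read 232, 344 and 315 units on the TEB arrays, 272 and 267 on the duct arrays and 271, 285 and 205.8 on the stroma arrays. The arrays of the 3 tissues overlapped, since TEB replicate 1 lay below both duct arrays and the other TEB arrays lay above them. TEBs differed from ducts by 0.12 on the log2 scale (standard error 0.21, 95% confidence interval -0.39 to 0.63, adjusted p = 0.70 from limma). The difference was -0.24 with no scaling, and under quantile normalization and in the value table of the series it passed the threshold, at 0.37 (adjusted p = 0.036) and 0.36 (adjusted p = 0.039).

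miR-25, the third miRNA of the Mcm7 transcript, read 176, 231 and 208 units on the TEB arrays, 206.5 and 191 on the duct arrays and 194, 200.1 and 189.7 on the stroma arrays. It was the most even of the 4 tested members, with a range of 176 to 231 units over all 8 arrays. TEBs differed from ducts by 0.04 on the log2 scale (standard error 0.13, 95% confidence interval -0.28 to 0.35, adjusted p = 0.86 from limma), and its direction flipped with no scaling, at -0.33. TEB replicate 1 gave the lowest of the 3 TEB signals for each of the 4 members.

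miR-18b and miR-363 were not detected on any of the 8 arrays, and no fold change can be given for them. The scaled signal of miR-18b ran from -18.5 to -4.75 units and that of miR-363 from -9.51 to -1.27, all below the background. miR-18a, which differs from miR-18b at 2 positions, read 64.0, 88.7 and 80.4 units on the TEB arrays on which miR-18b was negative.

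**Figure D1:**
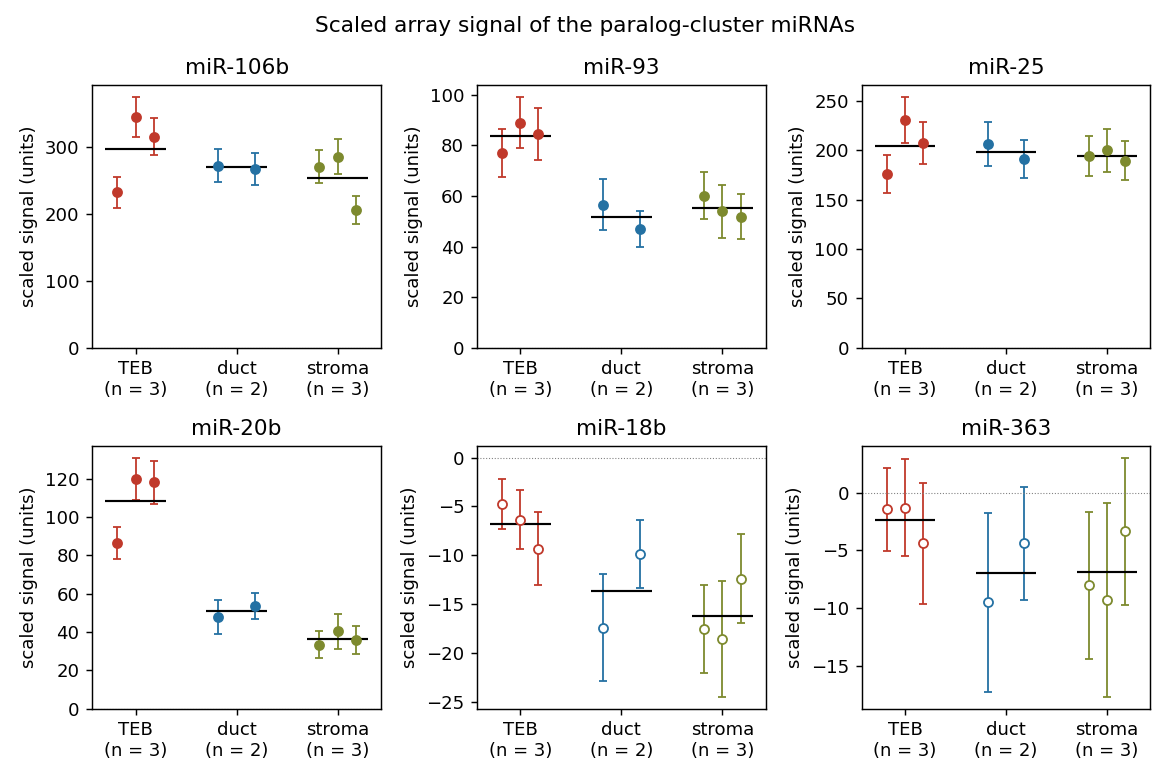
Scaled signal in units (vertical axes, each on its own range) of the 6 members on the arrays, by tissue. Each point is an array with the scanner software's error of its signal as the bar, the horizontal line is the tissue mean, filled points were detected and open points were not. miR-20b and miR-93 lie higher on all 3 TEB arrays than on any other array, miR-106b and miR-25 overlap between tissues, and miR-18b and miR-363 lie below 0.

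Against stroma, the same comparison gave 2 of the 4 tested members higher in TEBs and none lower, where 64.7% of all tested miRNAs were called, 20.4% higher and 44.3% lower. miR-20b was 2.94-fold higher in TEBs, or 1.55 on the log2 scale (standard error 0.16, adjusted p = 0.00032 from limma), and miR-93 was 1.51-fold higher, at 0.60 (standard error 0.12, adjusted p = 0.0049). miR-106b had a log2 fold change of 0.22 (95% confidence interval -0.24 to 0.68, adjusted p = 0.34) and miR-25 one of 0.07 (95% confidence interval -0.21 to 0.34, adjusted p = 0.64). The median of the 4 was 0.41, beside -0.28 over all tested miRNAs. The 34 higher and 74 lower calls over all miRNAs became 38 and 28 with the percentile of all mouse miRNAs, 41 and 41 with no scaling, 43 and 60 in the value table and 26 and 102 by normexp. The call of miR-20b held under each of the 21 alternatives, with log2 fold changes from 0.48 by normexp to 1.95 with the percentile of all mouse miRNAs. That of miR-93 was lost by normexp with its 50 added units, at a log2 fold change of 0.07 (adjusted p = 0.52 from limma). It held under the other 20.

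Between ducts and stroma, 0 of the 4 tested members passed limma's adjusted threshold, where 21.6% of all tested miRNAs were called, 9.58% higher in ducts and 12.0% lower. At an unadjusted p under 0.05 the count was 1, miR-20b, both by limma and by the methods' t-test, which called 0 after adjustment. The log2 difference of miR-20b was 0.48 (standard error 0.18, adjusted p = 0.11), which passed with no scaling (1.09, adjusted p = 0.0097) and without TEB replicate 1 (adjusted p = 0.036) and turned to -0.08 by normexp. Over all tested miRNAs the 16 higher and 20 lower calls became 11 and 8 with the percentile of all mouse miRNAs, 52 and 4 with no scaling and 14 and 52 by normexp. The log2 fold change of miR-106b was 0.10 (95% confidence interval -0.41 to 0.61), that of miR-25 0.03 (-0.28 to 0.34) and that of miR-93 -0.10 (-0.41 to 0.21). With TEBs and ducts pooled as epithelium, the 5 arrays of miR-20b lay above the 3 stroma arrays (two-sided exact permutation test, p = 0.0357, adjusted p = 0.267 over the 16 member comparisons), as they did for 13.2% of the tested miRNAs, with 33.5% apart in either direction. The other 3 members overlapped between epithelium and stroma.

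Among the 5 tested guide strands of miR-17-92, miR-19b and miR-92a also have hairpins in miR-106a-363, so their signals cannot be assigned to 1 cluster. All 5 were called higher in TEBs than in stroma, as were 20.4% of all tested miRNAs. For miR-18a that call rests on undetected stroma signals. Of the 5, 4 were called higher in TEBs than in ducts, as were 11.4% of all tested miRNAs. Between these fractions the log2 fold changes were 0.82 for miR-20a (adjusted p = 0.027 from limma), 1.69 for miR-19a (adjusted p = 0.012), 0.61 for miR-19b (adjusted p = 0.017) and 2.59 for miR-18a (adjusted p = 0.013), and miR-92a, at 0.34, was not called (adjusted p = 0.055). These 4 calls fell to 0 without TEB replicate 2, 0 without duct replicate 1 and 2 without duct replicate 2, and numbered 2 with no scaling, 2 with no detection filter and 1 under the methods' t-test. The median log2 fold change of the 5 was 0.82, beside 0.41 for the 4 paralog members. Between ducts and stroma 2 of the 5 passed, miR-18a and miR-19b, where 21.6% of all tested miRNAs were called, 9.58% higher in ducts. The count was 1 or 2 without each array in turn. miR-18a read 9.89 and 16.4 units in ducts and was below detection on all 3 stroma arrays, with signals between -2.55 and 2.54 units. Its calls against stroma rest on these signals, so no fold change or p-value against stroma is given for it. miR-17 was below detection on all arrays, which is not read as its absence, since its probes were not tested.

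**Figure D2:**
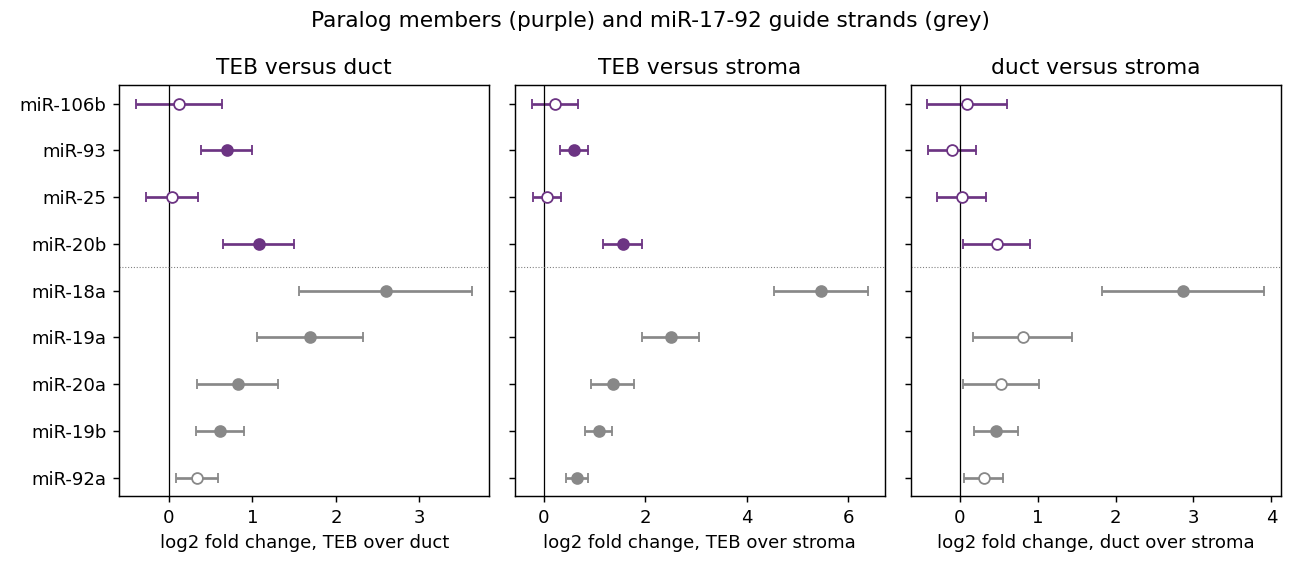
Log2 fold changes with 95% confidence intervals (horizontal axes, on different ranges) of the 4 tested paralog members in purple and the 5 tested miR-17-92 guide strands in grey, in the 3 comparisons. Filled points passed an adjusted p of 0.05. miR-93 and miR-20b are filled in both comparisons of TEBs, miR-106b and miR-25 in none, and the values of miR-18a against stroma come from undetected stroma signals and are not read as fold changes.

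Of the other miRNAs of the miR-25/92 seed, miR-32 and miR-367 were not detected on any array, and miR-92b was detected on 1 duct array alone, at 31.7 units, and was not tested. The other strands of the hairpins of miR-106b, miR-93 and miR-20b, named with an asterisk, were not detected on any array either, so that for these 3 hairpins the signal was seen for the unstarred strand only. Their scaled signals lay between -13.9 and -6.20 for miR-106b*, -5.11 and 3.37 for miR-93*, and -17.4 and -5.29 for miR-20b*.

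Ratios of 2 miRNAs within an array do not depend on the scaling of that array, and ask whether a pair changed by different amounts. The level of such a ratio compares signals and not amounts of RNA, so only its differences between tissues are read. Of 12 pairs, 7 had both miRNAs tested. Arrays lay apart for 5 of the 7 between TEBs and ducts, 5 between TEBs and stroma and 3 between ducts and stroma, where over all 13861 pairs of tested miRNAs they lay apart for 68.4%, 70.7% and 45.5%. These counts are near the background, so the ratios are given as values of each pair. For miR-93 over miR-25, from a common transcript, the log2 ratio was -1.29 ± 0.09 in TEBs (SD, n = 3), -1.94 ± 0.11 in ducts (SD, n = 2) and -1.82 ± 0.11 in stroma (SD, n = 3). The TEB arrays lay between -1.37 and -1.19, above the duct arrays at -2.02 and -1.87 and above the stroma arrays, so that miR-93 rose over miR-25 in TEBs by 0.66 against ducts and 0.53 against stroma (exact permutation test, p = 0.1 in each, the smallest p possible, and adjusted p = 0.175 over the 21 comparisons). miR-106b over miR-93 was lower in TEBs, by a log2 difference of -0.57 against ducts and -0.38 against stroma, with no overlap of arrays, although the second difference turned to 0.041, with overlap, by normexp. For miR-106b over miR-25 the arrays overlapped in all 3 comparisons, with differences of 0.09, 0.16 and 0.07.

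Set against miR-20a of the miR-17-92 cluster, the paralogs of the same seed had different ratios. The log2 ratio of miR-106b to miR-20a was -0.99 ± 0.04 in TEBs (SD, n = 3), -0.29 ± 0.02 in ducts (SD, n = 2) and 0.14 ± 0.05 in stroma (SD, n = 3), so that every pair of tissues lay apart, by -0.70 between TEBs and ducts and by -1.13 between TEBs and stroma. The spread within a tissue was small beside these differences, although the exact permutation p was again 0.1, the smallest possible. The signal of miR-20b kept close to that of miR-20a, with a log2 ratio of -2.45 ± 0.03 in TEBs, -2.70 ± 0.16 in ducts and -2.65 ± 0.26 in stroma. How far binding of miR-20a to the miR-20b probes added to this ratio was not tested. The arrays lay apart only between TEBs and ducts, by 0.25. By normexp, with its 50 added units, this difference turned to -0.15, with the TEB arrays all below the duct arrays. miR-93 over miR-20a overlapped between TEBs and ducts, at a difference of -0.13, and was lower in both epithelial fractions than in stroma, by -0.76 in TEBs and -0.63 in ducts. For the miR-25/92 seed, miR-25 over miR-92a fell by 0.31 between ducts and TEBs (exact permutation test, p = 0.2) and by 0.59 between stroma and TEBs (exact permutation test, p = 0.1), and the arrays of all 3 tissues lay apart. The first of these turned to a rise of 0.044 under quantile normalization, where the arrays overlapped. In the value table of the series it turned to a rise of 0.031, with the TEB arrays all above the duct arrays.

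**Figure D3:**
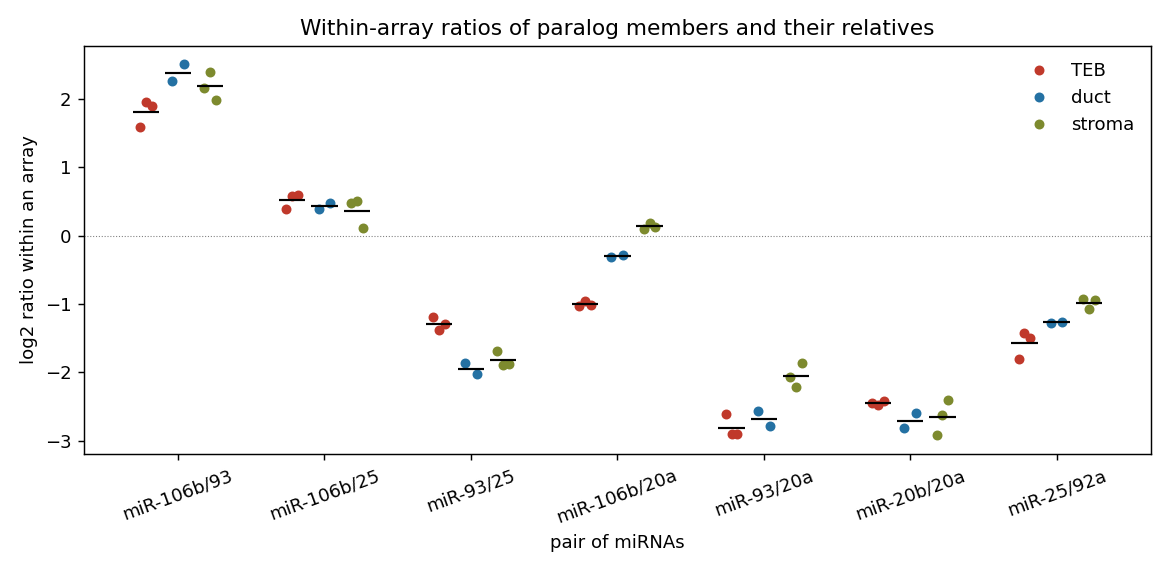
Log2 ratio of the signals of 2 miRNAs within each array (vertical axis) for the 7 pairs with both miRNAs tested, coloured by tissue, with the tissue mean as a line. The ratio of miR-106b to miR-20a separates all 3 tissues, that of miR-93 to miR-25 sets the TEBs above the others, and that of miR-106b to miR-25 overlaps in all.

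Correlations were taken over the 8 arrays, which fall into the 3 tissues and share their scaling. Among the 163 tested miRNAs outside the members, the log2 signal of miR-20b was most alike to those of miR-19b (Pearson r = 0.978), miR-20a (0.972) and miR-132 (0.970). Of these, miR-19b also has a hairpin in the cluster of miR-20b. How far binding of miR-20a to the miR-20b probes added to the likeness was not tested. For miR-93 the nearest were miR-31 (0.943), miR-455 (0.931) and miR-132 (0.925). The mean log2 signals of miR-31 in ducts and stroma were equal (log2 difference 0), as happens where signals are set to the floor of 1. Its r thus mainly reflects TEBs against the other tissues and is not read as likeness within ducts or stroma. miR-106b lay nearest to miR-21 (0.814), miR-34a (0.771) and miR-27a (0.715), and miR-25 to let-7i (0.775), miR-34a (0.741) and miR-21 (0.705). Among all 166 other tested miRNAs the one most alike to miR-106b was miR-25, with r = 0.830, and the reverse also held, whereas miR-93 ranked 14 from miR-106b (0.533) and 15 from miR-25 (0.421). The correlations are descriptions of these arrays and were given no test.

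**Figure D4:**
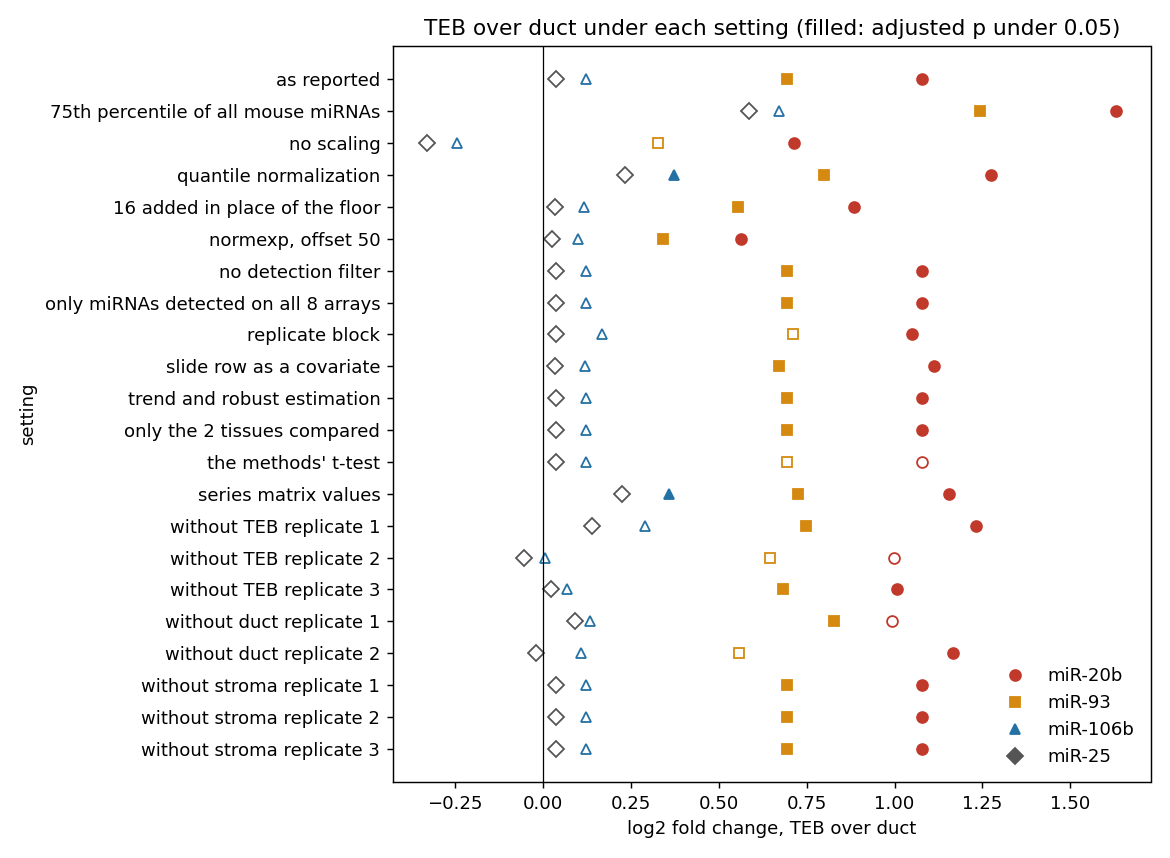
Log2 fold change of TEBs over ducts (horizontal axis) of the 4 tested members under the reported setting and 21 alternatives (vertical axis), with filled symbols where the adjusted p was under 0.05. miR-20b and miR-93 stay above 0 and above miR-106b and miR-25 in every setting, while miR-106b and miR-25 lie on either side of 0.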

How the data were processed

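Single-colour arrays of dissected TEBs (3), mature ducts (2) and stroma (3) were grouped by their labels. The authors deposited, for each array, the total signal intensity of each miRNA from Agilent Feature Extraction 9.5.3 (named in the submitters' processing notes), with its error and a detection flag. These intensities are background-subtracted and not normalized between arrays, and weak ones are negative (340 to 391 miRNAs per array). The authors also deposited a series table on a log2 scale, whose 8 columns have nearly equal upper quartiles (4.56 to 4.66) and medians of 0.17 on duct replicate 1 and 1.57 to 1.69 on the others, and follow the log2 signals of their own arrays (r of 0.981 to 0.997). The normalization behind it is not given in the sources used here, and of tests the methods name t tests in general.

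Control probes and 39 viral probes were left out. Arrays were brought to a common 75th percentile, taken over the 108 miRNAs with detection on each of them, because over all 611 this percentile lay at the edge of detection (11.5 to 29.9 units). Scaled signals under 1 were set to 1, which touched no tested member, and log2 values were fitted by the linear models and eBayes of limma 3.58.1 (R 4.3.3) at an adjusted p of 0.05. The procedure was tested on simulated data. Single members and within-array ratios were compared by two-sided exact permutation tests. The alternatives were other scalings, floors, filters, covariates, variance models and tests, the series table, and leaving out each array. In the normexp alternative, 50 units were added to each corrected signal before scaling. The text names the members, the listed relatives, tissue markers and the 3 miRNAs most correlated with each tested member. The members and lists were chosen with earlier results of these data known. All arrays lay on 1 slide, whose 2 rows were read from the array positions in the deposited names and each hold all 3 tissues. The unstarred name of a miRNA was taken as its 5p arm, and as its 3p arm for miR-25, miR-363, miR-92a and the other miRNAs of that seed.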

Additional observations from a re-analysis of the deposited data

How the results depend on the processing

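The arrays give signals and no counts, so weak signals limit the precision, with the scanner's error at 8.99% to 22.6% of the signal for miR-20b and 11.2% to 19.6% for miR-93. The percentile of all mouse miRNAs moved the median log2 difference of all tested miRNAs between TEBs and ducts by 0.55, no scaling by -0.36, quantile normalization by 0.12 and the series table by 0.12. Members called between TEBs and ducts numbered 1 with no scaling, 1 with the replicate block and 0 under the methods' t-test (2 at an unadjusted p), and 0 to 2 without each array in turn. Between TEBs and stroma 1 was called by normexp, and between ducts and stroma 1 with no scaling and 0 to 1 without each array. A fit without a duct array assumes that the lone duct array varies like the other tissues. The 6 of 16 single comparisons whose arrays lay apart became 6 to 10 without each array. Over all tested miRNAs, arrays lay apart for 65.3% between TEBs and ducts and 71.9% between TEBs and stroma. The shares were 42.5% between ducts and stroma and 33.5% between epithelium and stroma. With an array left out, groups lie apart more easily, so these counts are not read as results about the members. The within-array ratios gave 13 to 16 comparisons apart of 21 in the same fits, and of the 13 apart, 1 reversed by quantile normalization, 1 in the series table and 2 by normexp, as given with their values above.

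The correlations of the deviations of same-numbered arrays averaged -0.10 (7 pairs, from -0.51 to 0.36) and those of other pairs 0.05 (14 pairs). Deviations from a tissue mean cancel within the tissue, so these averages are tied to each other. They cannot decide whether the replicate numbers pair the arrays. The replicate block moved miR-93 between TEBs and ducts to a log2 fold change of 0.71 (adjusted p = 0.061 from limma) and changed no other call of a member. Of the 5 miR-17-92 guide strands, the calls between TEBs and ducts numbered 2 with no scaling, 2 with no detection filter (where limma warned of zero variances), 0 with the block, 1 under the methods' t-test and 0 to 4 without each array. Between TEBs and stroma they numbered 3 when only miRNAs detected on all 8 arrays were fitted, which leaves 3 of the 5. Between ducts and stroma they numbered 5 with no scaling, 0 under the methods' t-test, 1 to 2 without each array, and 1 with the percentile of all mouse miRNAs, normexp, no detection filter, detection on all arrays, the block, the slide row and the 2-tissue fit.

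Directions that turned were all of differences without a call. Between TEBs and ducts, no scaling gave -0.24 for miR-106b and -0.33 for miR-25, and leaving out arrays gave -0.054 to 0.14 for miR-25. Between TEBs and stroma, miR-25 was -0.040 by normexp and -0.025 to 0.17 without each array. Between ducts and stroma, the percentile of all mouse miRNAs gave -0.058 for miR-106b and -0.13 for miR-25, quantile normalization -0.29 and -0.12, and the series table -0.28 and -0.12. Normexp gave -0.066 for miR-25 and -0.078 for miR-20b, and no scaling 0.52 for miR-93. Without each array these ran from -0.044 to 0.19 for miR-106b, -0.026 to 0.086 for miR-25 and -0.23 to 0.038 for miR-93. The cause of these changes was not tested. The count of detected members, 4, was the same when 1 array of a tissue was enough.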
